A study of Homo sapiens with 4 samples.

Results

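The genes described here are 10 transcription factor genes of the GATA and FOXA families and of the lung epithelium: GATA2, GATA3, GATA4, GATA6, FOXA1, FOXA2, NKX2-1, KLF5, ELF3 and TP63. They were taken by name, with earlier results of these data known. Their shares are therefore set beside those of all genes as a description, not a test. Every probe set that the platform annotation pairs with one of them alone was used. This gave 25 probe sets for 9 genes, of 41091 probe sets and 19775 genes with a single symbol. TP63 was not analysed here, because no probe set carried its symbol alone in the annotation used, so nothing is said of its level. All 9 genes had a signal above the floor of at least 1 array, and 7 were above it on all 4. The floor is the median signal of an array's probe sets other than controls, and it stands in for the detection calls, which were not used here.

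The samples were 4 subpopulations of PC14, a non-small-cell lung cancer cell line, each measured on 1 one-colour Affymetrix array. The cells were first sorted by flow cytometry on high or low E-cadherin, an adhesion protein of epithelia. Each fraction was then divided by green fluorescence into CD133-high and CD133-low cells, after transduction with a lentiviral vector that expresses the fluorescent protein from the CD133 P1 promoter. The study speaks of epithelial and mesenchymal types of stem-like cells. All 4 come from 1 line, so the arrays describe that line only, and CD133-high means that the reporter was active, not that CD133 protein was measured. With 1 array for each subpopulation no difference below has a replicate check, and n is 1 for every signal. In such bulk samples, fewer cells of a type and less RNA per cell cannot be told apart.

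The GATA factors are zinc finger proteins that bind DNA sites with the letters GATA and set lineages. GATA2 is known for blood stem cells and endothelium, GATA3 for T cells and luminal epithelium, and GATA4 and GATA6 for heart, gut and, in the case of GATA6, lung epithelium. The FOXA factors are pioneer factors, which can open closed chromatin, and FOXA1 and FOXA2 act together in the branching lung. NKX2-1 (TTF-1) drives surfactant genes and is a diagnostic marker of lung adenocarcinoma. KLF5 and ELF3 are factors of simple epithelia, and TP63 marks basal and squamous cells.

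The promoter sequences of GATA3 and GATA2, whose signals followed the CD133 sort together, and of FOXA1, whose signal was low on a single array, show what lies before these genes. They come from RefSeq (GRCh38.p14) and give the 250 bases before the most upstream start in the table, 5′ to 3′ on the strand of the gene. Listed starts were 6 for GATA3, 2 for GATA2 and 1 for FOXA1, and which of them these cells use was not tested. A window was found for 8 of the 10 genes, GATA4 and FOXA2 being the others. GATA3 lies at chr10:8045083-8045332 on the plus strand, GATA2 at chr3:128493202-128493451 on the minus strand and FOXA1 at chr14:37595250-37595499 on the minus strand. Capitals mark the letters TGTTT, a core of forkhead (FOX) sites, or the reverse complement AAACA, and GATA2 has none.
GATA3: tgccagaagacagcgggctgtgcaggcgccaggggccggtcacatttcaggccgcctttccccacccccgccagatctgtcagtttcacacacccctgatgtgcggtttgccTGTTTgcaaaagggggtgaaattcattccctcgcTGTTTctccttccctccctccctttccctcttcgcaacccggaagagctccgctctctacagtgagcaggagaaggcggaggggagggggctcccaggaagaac
GATA2: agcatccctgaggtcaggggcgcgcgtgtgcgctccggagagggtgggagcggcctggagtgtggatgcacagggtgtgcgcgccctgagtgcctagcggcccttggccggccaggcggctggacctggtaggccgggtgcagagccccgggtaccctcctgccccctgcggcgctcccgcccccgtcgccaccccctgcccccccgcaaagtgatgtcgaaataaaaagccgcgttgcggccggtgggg
FOXA1: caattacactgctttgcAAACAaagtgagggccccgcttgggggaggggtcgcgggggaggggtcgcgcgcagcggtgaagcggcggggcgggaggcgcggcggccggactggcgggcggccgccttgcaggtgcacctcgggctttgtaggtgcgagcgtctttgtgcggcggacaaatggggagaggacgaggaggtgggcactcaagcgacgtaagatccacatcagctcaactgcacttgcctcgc
On either strand, TGTTT was in the windows of 5 of the 7 measured genes that have one (GATA3, GATA6, FOXA1, NKX2-1 and KLF5), against 41.0% of 27305 windows of the same length. The GATA core GATAA was in 0 of the 7, against 21.0% of all windows. The longer letters AGATAA and TGTTTAC were in 0 of the 7 as well, against 9.40% and 3.01%. These matches describe letters in the windows only.

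The sort was visible in its first marker. CDH1, the gene of E-cadherin, read 5548 and 3546 with high E-cadherin and 347 and 528 with low E-cadherin. PROM1, the gene of CD133, read 4.79 to 29.7, below the floor of each array, and does not check the second sort. The floors were signals of 53.7 to 60.3, and the arrays had been scaled to a trimmed mean of 500.1. As to the tissue, each marker was read by its brightest probe set with a single symbol. EPCAM, KRT8, KRT18 and KRT7 of 5 epithelial markers thus lay above the floor on all arrays. The probe set used for KRT19, at 3.1 to 16.7, lay below the floor on all. Of 5 markers of alveolar type 2 cells with a probe set, NKX2-1 and SFTPB lay above it on all arrays, with signals of 70.4 to 263, SFTPC on 3, NAPSA on 2 and SFTPD on none. The basal markers KRT5, KRT14 and DSG3 lay below it on all 4.

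GATA3 was far lower in the CD133-high than in the CD133-low cells. Its brightest probe set read 73.7 in E-cadherin-high CD133-high cells, 154 in E-cadherin-low CD133-high cells, 1470 in E-cadherin-high CD133-low cells and 3523 in E-cadherin-low CD133-low cells. Both CD133-high arrays were below both CD133-low arrays. The signal was 20.0-fold lower with CD133 among E-cadherin-high cells and 22.9-fold lower among E-cadherin-low cells, log2 ratios of -4.32 and -4.52. The ID of this probe set marks it as shared between transcripts, as do those of the brightest probe sets of GATA4, NKX2-1 and ELF3.

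The other probe sets of GATA3 gave the same order. One read 0.616 and 1.44 on the CD133-high arrays, both under the floor, and among CD133-low cells 236 with high and 870 with low E-cadherin. The ratios are bounds, at least 4.39-fold and at least 14.4-fold. The third read 18.7 and 24.8, again under the floor, against 158 and 453, at least 2.95-fold and at least 7.51-fold. It is the only 1 of the 3 whose ID does not mark it as shared, and without the shared ones the CD133 ratios of GATA3 become bounds of -1.56 and -2.91, with a mean of -2.23 in place of -4.42. In both pairs of arrays, all 3 probe sets of GATA3 were thus lower with high CD133 by 2-fold or more.

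GATA2 had the same order of arrays. Its brightest probe set read 430 (high E-cadherin) and 513 (low E-cadherin) with high CD133, and 1330 and 2788 with low CD133. The CD133-high arrays again lay below both CD133-low arrays, with log2 ratios of -1.63 and -2.44 (3.10-fold and 5.43-fold lower). Its other probe sets had smaller ratios. The one whose ID marks possible cross-hybridisation read 183, 166, 274 and 426, with ratios of -0.59 and -1.36, and the remaining one 145, 185, 208 and 219, with -0.52 and -0.25. As the mean over its 3 probe sets GATA2 had -0.91 and -1.35, and would not be counted.

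A gene was counted where it was at least 2-fold higher, or at least 2-fold lower, in both pairs of arrays that differ in the same marker. By that rule 2 of the 9 genes, GATA2 and GATA3, were lower in CD133-high cells and 0 were higher. Of all 14083 measured genes 1.12% were lower and 2.45% were higher. As the members were chosen with earlier results of these data known, these shares do not test for an excess. Over probe sets, 4 of the 22 that lay above a floor were lower, where 0.985% of all such probe sets were. Of the 4, 3 belong to GATA3, while 0 of the 22 were higher against 2.03% of all. The limma fit given next has no replicates to draw on. Its residual is how far the CD133 ratio differs between the 2 pairs, moderated over all genes. Its standard errors and p-values therefore do not measure a spread between replicates. In an additive limma fit over all genes, with both markers as terms and 1 residual degree of freedom, the CD133 difference of GATA3 was -4.42 (standard error 0.233) with a Benjamini-Hochberg adjusted p of 0.0127, and that of GATA2 was -2.04 (standard error 0.287) with an adjusted p of 0.0613. The fit called 0.192% of genes higher and 0.199% lower with CD133. Without the floor under low signals the adjusted p of GATA3 in this fit became 0.366 and that of GATA2 0.366, and among genes above the floor on all arrays they were 0.0191 and 0.0660.

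The antisense genes of GATA2, GATA3 and GATA6 were looked up after these values had been seen. GATA2-AS1, a long non-coding RNA gene of the same locus, was below the floor with high CD133 (5.92 and 11.6) and read 117 and 196 with low CD133. The log2 ratios are bounds of -1.12 and -1.70. GATA3-AS1 read 3.22, 3.49 and 14.9 and reached 83.1, above the floor, in E-cadherin-low CD133-low cells only, by the brighter of its 2 probe sets. In both, the array with the highest signal of the antisense gene was also that with the highest signal of its GATA gene. GATA6-AS1 read 196, 145, 480 and 174 in the order E-cadherin-high CD133-high, E-cadherin-low CD133-high, E-cadherin-high CD133-low and E-cadherin-low CD133-low, the order of arrays that GATA6 had for its highest and its lowest. Whether these probe sets read the antisense strand alone was not tested.

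**Figure D1:**
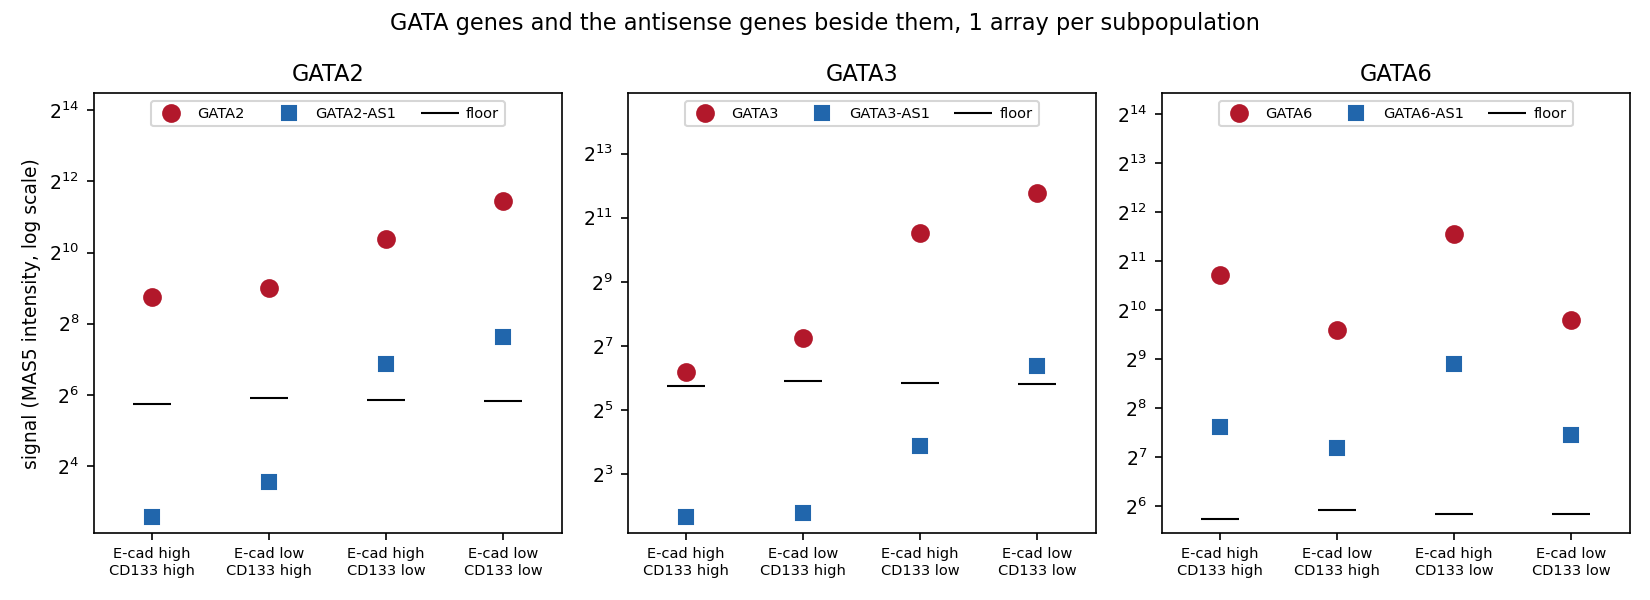
Signals (MAS5 intensity, log scale) of GATA2, GATA3 and GATA6 (circles) and of the antisense genes beside them (squares) in the 4 subpopulations, 1 array each, with the floor of each array as a bar. GATA2-AS1 lies above the floor in the CD133-low subpopulations only, at 117 and 196, where GATA2 reads 1330 and 2788.

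GATA3 was also higher in E-cadherin-low than in E-cadherin-high cells. The differences were 2.08-fold among CD133-high and 2.40-fold among CD133-low cells (1.06 and 1.26 on the log2 scale). They passed the 2-fold rule narrowly and did not hold under other scalings: after quantile normalization the ratios were 0.91 and 1.22, and with equal array medians 0.89 and 1.27. Neither of the other probe sets lay above the floor on a CD133-high array, and they had ratios of 1.88 and 1.52 among CD133-low cells. GATA2 had 0.26 among CD133-high and 1.07 among CD133-low cells. By the brightest probe sets, E-cadherin-low CD133-low cells thus had the highest GATA2 and GATA3 signal of the 4, at least 2-fold above every other array. Of all measured genes 0.476% did so. The other probe sets of GATA2 were also highest there, but with ratios of only 0.64 and 0.07 among CD133-low cells. By its brightest probe set GATA3 was also at least 2-fold below every other array on that of E-cadherin-high CD133-high cells, as were 0.511% of genes. The rule of standing 2-fold apart on 1 array was set after the values had been seen.

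GATA6 followed the E-cadherin sort instead, by its brighter probe set. Its brighter probe set read 1689 and 2999 in E-cadherin-high cells (CD133-high and CD133-low) and 777 and 896 in E-cadherin-low cells. Both E-cadherin-low arrays lay below both E-cadherin-high arrays, with log2 ratios of -1.12 among CD133-high and -1.74 among CD133-low cells, which is 2.17-fold and 3.35-fold. The CD133 ratios of GATA6 were -0.83 and -0.21. Its other probe set read 6.95, 12.3, 52.3 and 78.0 and was above the floor on 1 array only, that of E-cadherin-low CD133-low cells, so it gave no measure of the E-cadherin difference. As a mean over both probe sets GATA6 had E-cadherin ratios of -0.15 and -0.58, and was not counted for E-cadherin. By that mean it was counted as lower with CD133, with ratios of -1.87 among E-cadherin-high and -1.43 among E-cadherin-low cells. The mean takes in the signals of the dimmer probe set that lay under the floor.

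In the E-cadherin comparison the counted genes were therefore GATA6, lower, and GATA3, higher, which is 1 of 9 in each direction, where 0.540% of all measured genes were lower and 0.476% were higher. Over the 22 probe sets 1 was lower and 1 was higher, against 0.434% and 0.416% of all. The additive limma fit gave GATA6 a difference of -1.43 (standard error 0.265, adjusted p = 0.374) and GATA3 one of 1.16 (standard error 0.233, adjusted p = 0.381), with Benjamini-Hochberg adjustment. It called 0 of 14083 genes in this comparison (0.00%), with 961 at an unadjusted p under 0.05. Without the floor, and among genes above it on all arrays, it called 0 as well, with 833 and 774 at an unadjusted p under 0.05.

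**Figure D2:**
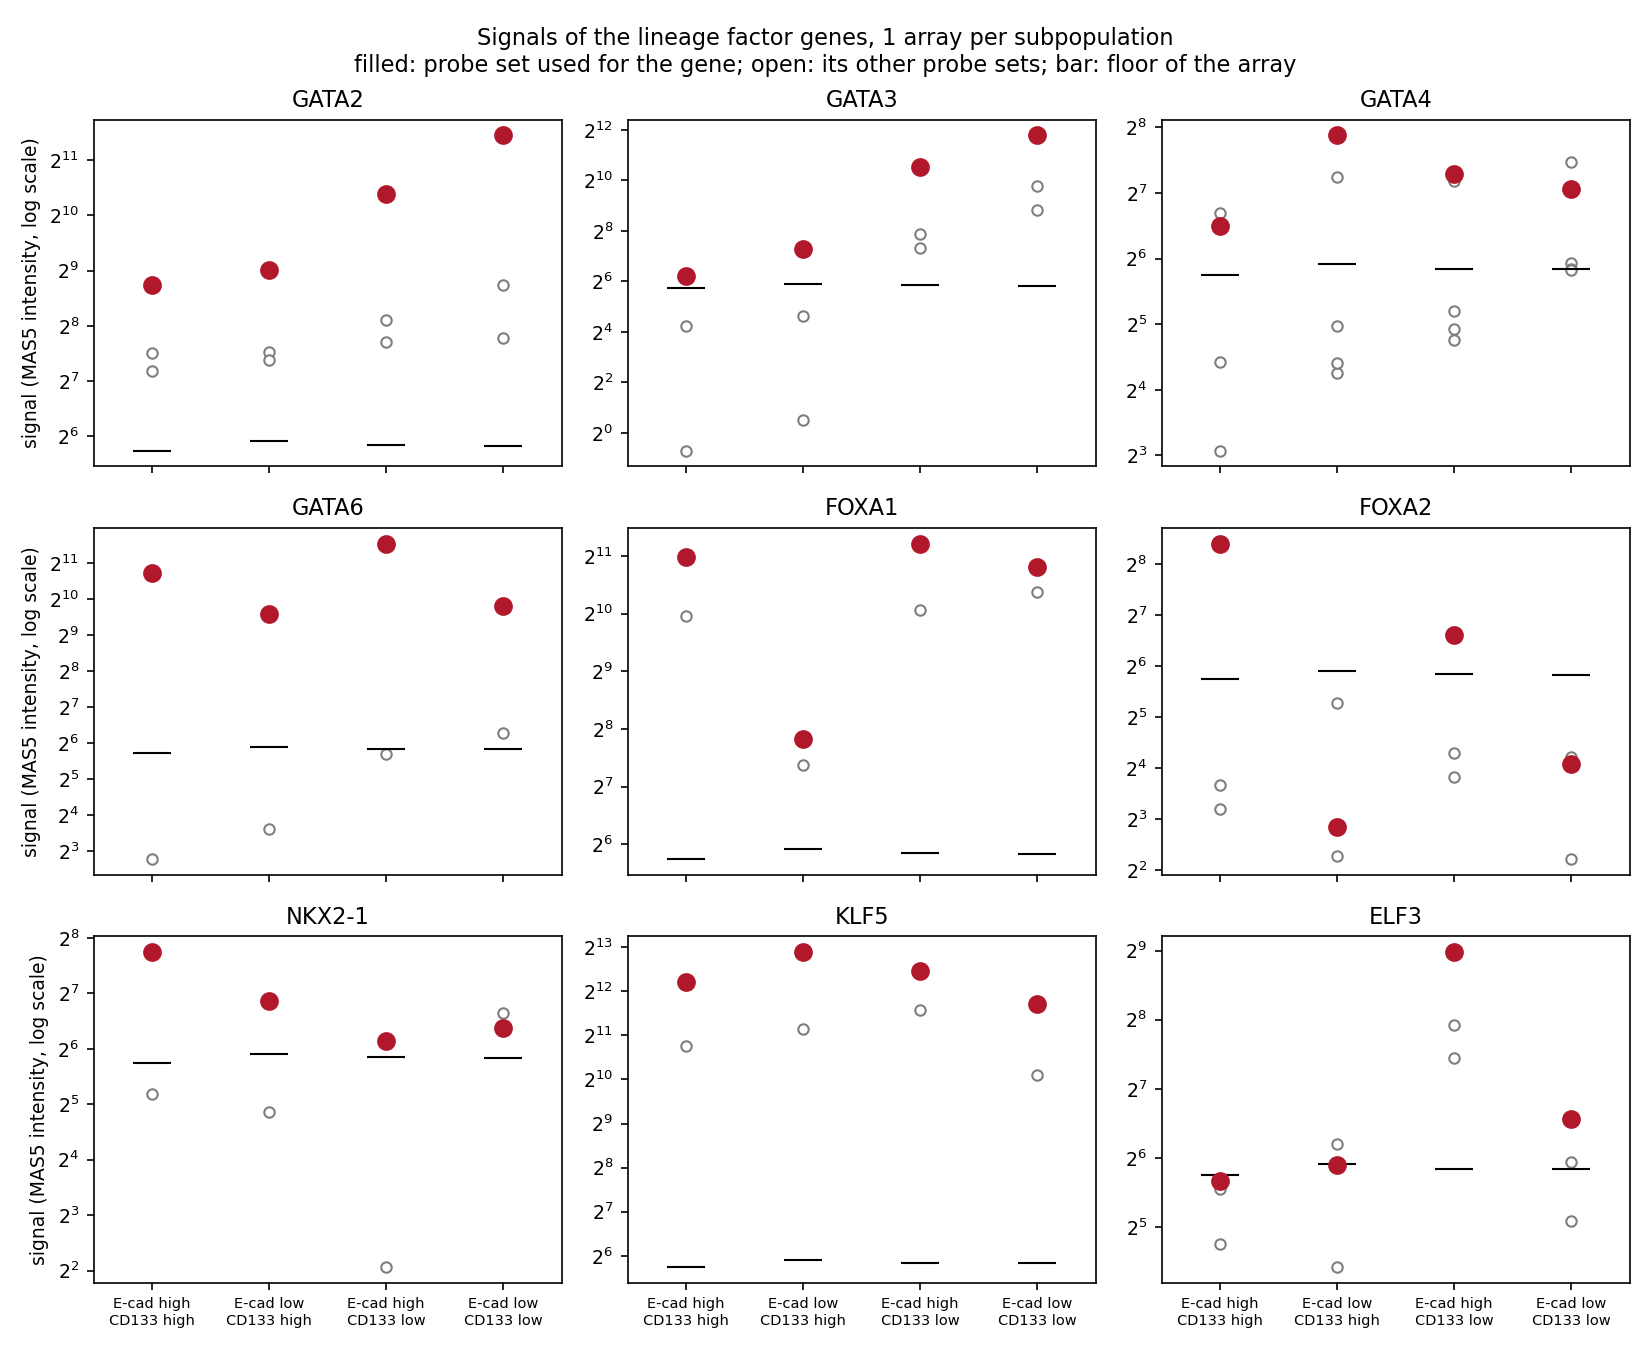
Signals (MAS5 intensity, log scale) of the 25 probe sets of the 9 genes in the 4 subpopulations, 1 array each; filled circles are the probe set that stands for the gene, open circles its other probe sets, bars the floor of the array. By the filled circles, GATA2 and GATA3 are lowest in the CD133-high subpopulations, GATA6 in the E-cadherin-low ones, FOXA1 on 1 array (226), and ELF3 is highest on 1 array (506).

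GATA4 gave dim signals that did not follow either marker. Its brightest probe set read 89.8, 235, 157 and 134 in E-cadherin-high CD133-high, E-cadherin-low CD133-high, E-cadherin-high CD133-low and E-cadherin-low CD133-low cells. Another read 104, 151, 145 and 177, and the remaining 3 lay between 8.43 and 91.1 and above the floor on at most 2 arrays. The CD133 ratios of the brightest were -0.80 among E-cadherin-high and 0.82 among E-cadherin-low cells, while the next had -0.48 and -0.23. The E-cadherin ratios of the brightest were 1.39 among CD133-high and -0.23 among CD133-low cells, and those of the next 0.54 and 0.29. Another of the probe sets had a bound of -0.59 among CD133-high cells. The probe sets of GATA4 therefore gave no common direction.

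FOXA1 was lower on a single array. It read 2016 in E-cadherin-high CD133-high, 2381 in E-cadherin-high CD133-low and 1798 in E-cadherin-low CD133-low cells, but 226 in E-cadherin-low CD133-high cells. The second probe set read 995, 1076 and 1327 in the first 3 and 165 in the last. Only the E-cadherin-low CD133-high array stood apart, and the other 3 lay within 1.32-fold of each other by the brighter probe set.

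Among CD133-high cells FOXA1 was 8.90-fold lower with low E-cadherin, and among CD133-low cells 1.32-fold (-3.15 and -0.41 on the log2 scale). Among E-cadherin-low cells it was 7.94-fold lower with high CD133, and among E-cadherin-high cells 1.18-fold, -2.99 and -0.24. The second probe set had E-cadherin ratios of -2.59 and 0.30 and CD133 ratios of -0.11 among E-cadherin-high and -3.01 among E-cadherin-low cells. FOXA1 was 1 of 85 genes (0.604%) that were at least 2-fold below every other array on that array. Its CD133 ratio was lower by 2.75 on the log2 scale in E-cadherin-low than in E-cadherin-high cells, and only 15 of 14083 genes, FOXA1 included, had a difference at or below it. With 1 array a group this dependence of one marker on the other could not be tested. The same array had the highest 3′ over 5′ signal ratios of actin (1.78, against 1.53 to 1.59) and of GAPDH (1.02, against 0.898 to 0.963), whose part in the FOXA1 result was not tested.

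FOXA2 was seen by 1 of its 3 probe sets. That probe set read 340 in E-cadherin-high CD133-high and 97.4 in E-cadherin-high CD133-low cells, and 7.16 and 17.0, below the floor, in the E-cadherin-low subpopulations. The E-cadherin-high arrays were both above the floor and the E-cadherin-low arrays both below it. The differences are bounds of at least 5.65-fold among CD133-high and at least 1.71-fold among CD133-low cells, so FOXA2 was not counted at 2-fold. It was counted, as lower, without a floor, with ratios of -5.57 and -2.52. Among E-cadherin-high cells FOXA2 was 3.49-fold higher with CD133, and E-cadherin-high CD133-high cells stood at least 2-fold above every other array, as did 0.511% of genes. Its other 2 probe sets lay below the floor on all arrays, at 4.67 to 38.7.

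NKX2-1 was dim throughout. Its brighter probe set read 215 in E-cadherin-high CD133-high cells, 117 in E-cadherin-low CD133-high cells, 70.4 in E-cadherin-high CD133-low cells and 83.1 in E-cadherin-low CD133-low cells. Both CD133-high arrays were above both CD133-low arrays, with ratios of 1.61 among E-cadherin-high and 0.49 among E-cadherin-low cells. The dimmer probe set read 36.5, 29.1 and 4.18 below the floor and 100 above it in E-cadherin-low CD133-low cells, which is the other way, and NKX2-1 was not counted. SFTA3 and NKX2-1-AS1, the genes on either side of it in RefSeq order, lay below the floor on all arrays.

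KLF5 was above the floor on every array and followed neither marker in both pairs. It read 4703, 7604, 5670 and 3344 in E-cadherin-high CD133-high, E-cadherin-low CD133-high, E-cadherin-high CD133-low and E-cadherin-low CD133-low cells. The highest and lowest signals were both on E-cadherin-low arrays. The E-cadherin ratios were 0.69 among CD133-high and -0.76 among CD133-low cells, and those of the second probe set 0.39 and -1.48. The CD133 ratios were -0.27 among E-cadherin-high and 1.19 among E-cadherin-low cells, and -0.81 and 1.05 by the second probe set. KLF5 was thus 2.27-fold higher with CD133 among E-cadherin-low cells only, and was not counted.

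ELF3 was highest on 1 array. Its brightest probe set read 506 in E-cadherin-high CD133-low cells and 50.6, 59.4 and 94.3 in E-cadherin-high CD133-high, E-cadherin-low CD133-high and E-cadherin-low CD133-low cells, the first and second of these under the floor. The other probe sets read 243 and 174 on the same array and at most 73.5 and 47.0 elsewhere. Low E-cadherin went with a 5.37-fold lower signal among CD133-low cells, and high CD133 with an at least 9.43-fold lower signal among E-cadherin-high cells. Among CD133-high cells both arrays were at the floor and gave no ratio. ELF3 was 1 of the 0.270% of genes that stood at least 2-fold above every other array on the array of E-cadherin-high CD133-low cells.

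Taken pair by pair, more of the 9 genes differed by at least 2-fold than in both pairs at once. The shares of all genes are given for scale only, as the members were chosen with earlier results known. With low E-cadherin, GATA3 and GATA4 were higher among CD133-high cells (2 of 9, against 3.81% of all measured genes), GATA4 by its brightest probe set only. In the same pair GATA6, FOXA1 and FOXA2 were lower (3 of 9, against 2.53%). Among CD133-low cells GATA2 and GATA3 were higher (2 of 9, against 2.63%), and GATA6 and ELF3 were lower (2 of 9, against 2.87%). With high CD133, FOXA2 and NKX2-1 were higher among E-cadherin-high cells (2 of 9, against 5.04%), and GATA2, GATA3 and ELF3 were lower (3 of 9, against 3.24%). Among E-cadherin-low cells KLF5 was higher (1 of 9, against 8.11%), and GATA2, GATA3 and FOXA1 were lower (3 of 9, against 4.27%).

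The CD133 ratio of 6 of these genes differed between the 2 pairs of arrays by at least 1 on the log2 scale, which could not be tested. It was lower by at least 1 on the log2 scale in E-cadherin-low cells for FOXA1 (-2.75), FOXA2 (-1.80) and NKX2-1 (-1.12), 3 of 9 against 4.94% of all measured genes. It was higher by at least 1 for ELF3 (2.59), GATA4 (1.62) and KLF5 (1.45), 3 of 9 against 6.98%. For ELF3, 48 of 14083 genes, itself included, had a difference at or above its own. For GATA4 the difference was 0.25 by the next brightest probe set. FOXA2 and ELF3 were below the floor on 2 arrays each, so their differences rest on the floor. On the remaining sides of the arrays 0 of the 9 genes stood 2-fold apart: above every other array for E-cadherin-low CD133-high cells (1.73% of genes did), below for E-cadherin-high CD133-low cells (0.738%) and below for E-cadherin-low CD133-low cells (1.14%).

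**Figure D3:**
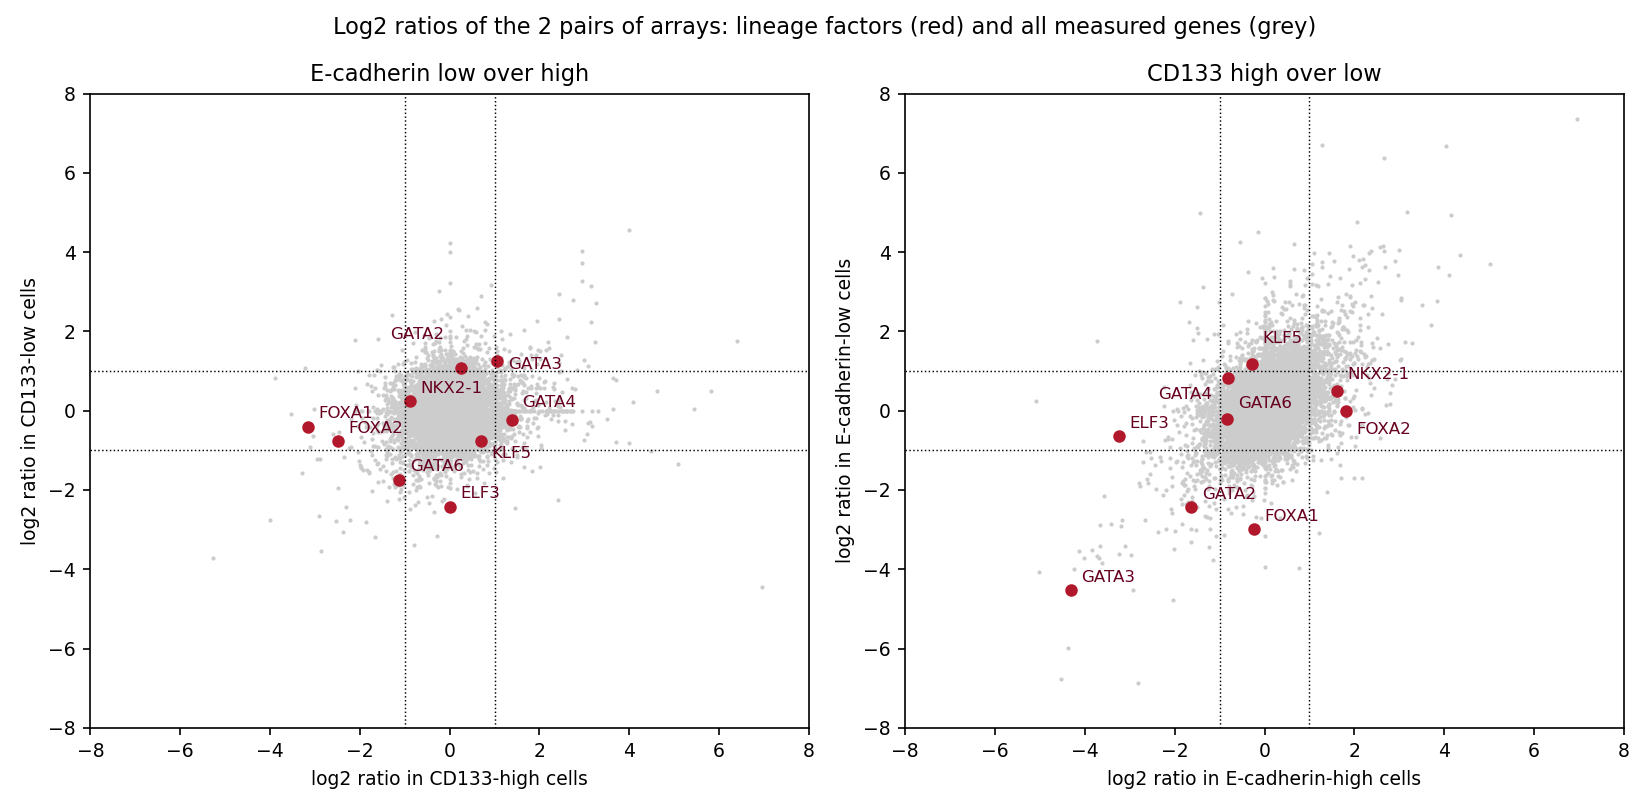
Log2 ratios of the 9 genes (red) and of all 14083 measured genes (grey) in the 2 pairs of arrays of each comparison, with dotted lines at 2-fold. GATA3 (-4.32 and -4.52) and GATA2 lie in the lower left corner for CD133, GATA6 in that for E-cadherin, and FOXA1 is far from 0 in 1 pair of each comparison (-3.15 and -2.99). Points at 0 include genes below the floor throughout a pair.

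Genes with the most similar course over the 4 arrays were sought among the 10891 genes above the floor on all of them, by the root mean square difference of log2 signals centred on each gene's mean. With 4 arrays many genes lie close to any pattern, so the names are a description. The 3 nearest to GATA3 were HOXB6 (0.52), HOXB7 (0.58) and HOXB5 (0.62), homeobox genes of positional identity, at a range of 5.58 for GATA3 itself. Nearest to GATA2 were FDX1 (0.15), GPR157 (0.20) and PLCB1 (0.22). Nearest to FOXA1 were SLC27A6 (0.26), a fatty acid transporter, FAM169A (0.27) and PDLIM1 (0.30). PDLIM1, a cytoskeletal adaptor, read 2041, 347, 2699 and 1570. For GATA6 they were CACNG4 (0.08), GUCY1B1 (0.13) and SH2D3A (0.14). For GATA4 they were FOSL2, RUFY3 and AGFG2, for NKX2-1 DMD, SDCCAG8 and GGCX, and for KLF5 ZNF616, CMIP and KCNAB2, at 0.05 to 0.09.

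Among the relatives of these factors, 1 gene of each of 2 lists was counted for CD133, where 1.12% of all measured genes were lower and 2.45% higher. Of 15 GATA and FOXA relatives and cofactors, 11 were measured, and 1 was lower in CD133-high cells, the homeobox gene NKX2-5 (143 and 115 against 294 and 276 in CD133-low cells, ratios of -1.03 and -1.26). GATA1 and GATA5 lay below the floor on all arrays. ZFPM1 (FOG1), a cofactor of GATA proteins, read 234 to 380, and FOXA3 read 274 to 428. Of 15 measured relatives of KLF5, ELF3 and TP63, 1 was higher with CD133, KLF11 (2712 and 2971 against 757 and 1097, ratios of 1.84 and 1.44), and the list's median CD133 ratio was 0.22 among E-cadherin-high and 0.65 among E-cadherin-low cells, where that of all measured genes was 0.00 in either pair. In both lists 0 genes were counted for E-cadherin, where 0.476% of all measured genes were higher and 0.540% lower.

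Among 25 measured developmental factors of lung and foregut, 2 were lower and 1 was higher in CD133-high cells, against the same 1.12% and 2.45% of all genes. TBX2, a T-box factor of the lung mesenchyme, read 229 and 154 with high CD133 but 933 and 1709 with low CD133, ratios of -2.03 and -3.48. IRX2, an Iroquois homeobox factor, had -2.32 and -1.17. SOX9, a factor of the distal lung tip, was higher, with 1.25 and 1.84. The CD133 medians of this list were -0.10 among E-cadherin-high and -0.20 among E-cadherin-low cells. For E-cadherin 0 of the 25 were counted, against 0.476% of all measured genes higher and 0.540% lower. Of 18 gastrointestinal and hepatic factors, 15 had a probe set, 8 of which were measured, and 0 were counted in either comparison. The shares of all genes are too small for 0 to be read as a result in lists of this size.

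In each list of cell type genes 1 or 2 members were counted, against 0.540% of all measured genes lower with low E-cadherin and 2.45% higher with CD133. CAV1, a caveola protein of alveolar type 1 cells, was the only 1 of 10 measured alveolar genes to be counted, lower with low E-cadherin (-1.03 and -2.19). Of 7 measured airway genes, the mucin MUC1 was lower with low E-cadherin (-1.39 and -2.28) and higher with CD133 (1.09 and 1.98). Of 5 measured basal and squamous genes, PERP, a desmosomal protein and p53 family target, was lower with low E-cadherin (-2.96 and -1.22), with signals of 29287 and 24428 against 3770 and 10501. S100A2 was higher with CD133 (1.41 and 3.19). Of 13 measured luminal genes, AGR3, a protein disulphide isomerase relative, was lower with low E-cadherin (-1.60 and -1.80) and higher with CD133 (1.12 and 1.32), and the factor TFAP2A was higher with CD133 (1.33 and 2.51).

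**Figure D4:**
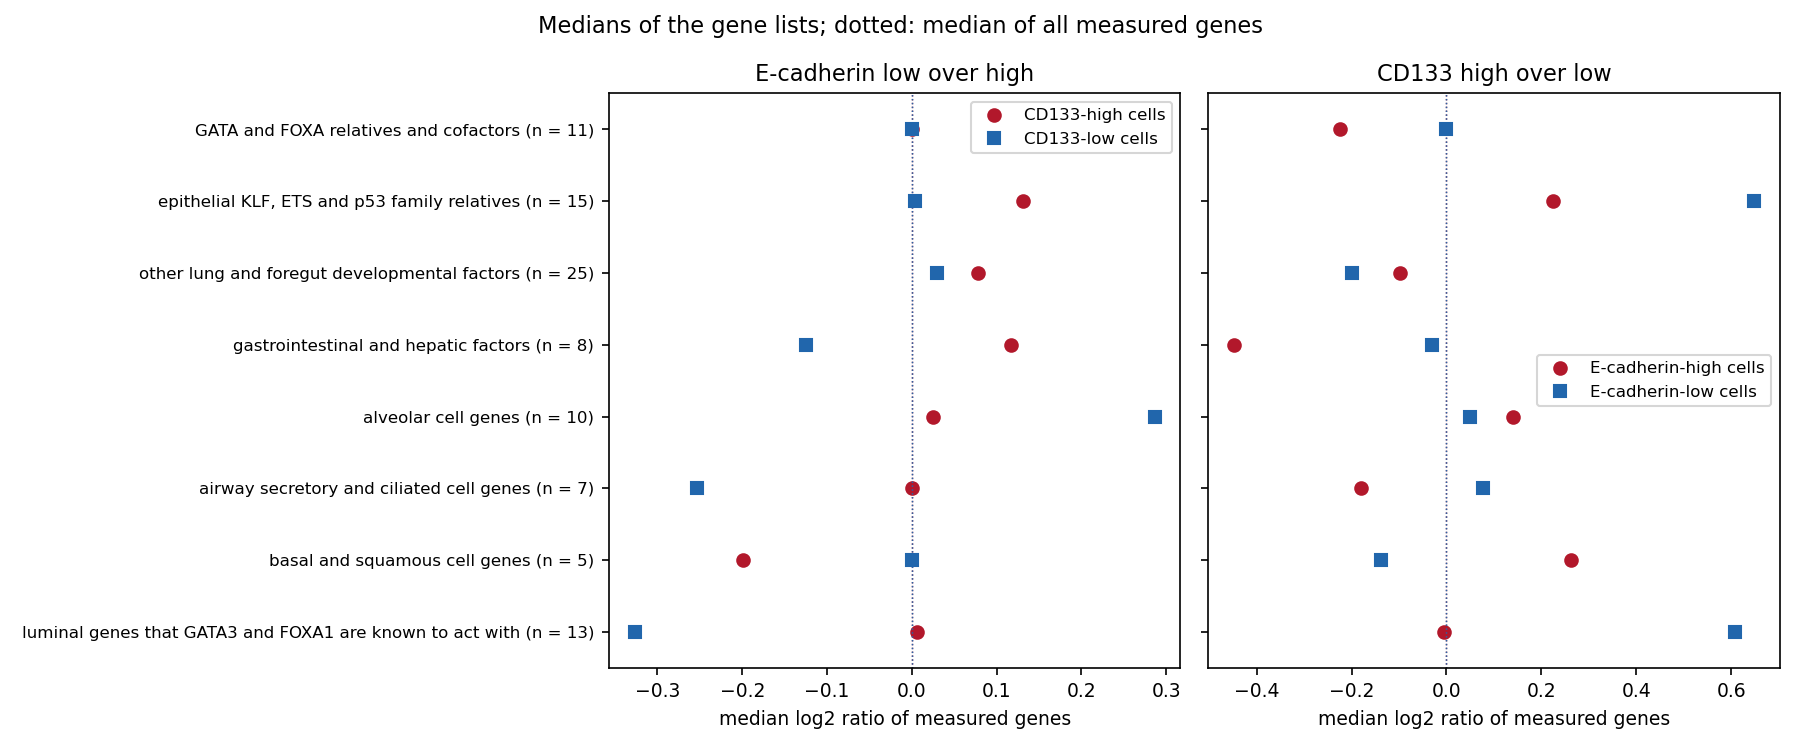
Median log2 ratio of the measured genes of 8 lists (n in the labels) in each of the 2 pairs of arrays of each comparison; the dotted lines are the medians of all measured genes, which are 0.00. The relatives of KLF5, ELF3 and TP63 had CD133 medians of 0.22 and 0.65, and the luminal genes had -0.01 and 0.61. The last is the ratio of GREB1, a bound, as that gene lay above the floor on 1 array only.

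Some markers of other cell types differed with the CD133 sort that GATA2 and GATA3 followed, in either direction, and others did not. Of 6 fibroblast and smooth muscle markers 5 were measured, with summed signals of 3077 and 4156 where CD133 was high, against 2053 and 1907 where it was low, and PDGFRB lay below the floor on all arrays. COL1A1, with signals of 1614 to 2087, makes up much of these sums. ACTA2 had CD133 ratios of 0.29 among E-cadherin-high and -0.40, a bound, among E-cadherin-low cells. COL1A2 had bounds of 0.18 and 2.93, and neither was counted. LUM (626 and 1390 against 228 and 131) and DCN (171 and 358 against 76.1 and 52.9) were counted as higher with CD133, by 2.75-fold and 10.6-fold and by 2.24-fold and at least 6.28-fold. Of 4 haematopoietic markers with a probe set 2 were measured, with sums of 1288 and 1170 against 421 and 543, mostly from PTPRC, which was counted as higher with CD133 (3.61-fold and 2.18-fold), while CD14 and SPI1 lay below the floor on all arrays. Of 5 endothelial markers 2 were measured, with sums over the 5 of 212 and 197 where CD133 was high, against 291 and 296 where it was low. Both were lower with CD133 in both pairs, as GATA2 and GATA3 were, but not counted. PECAM1 had ratios of -0.19 and -0.53, and TEK bounds of -0.88 and -0.38. CDH5, VWF and KDR lay below the floor on all arrays. Of 3 neuroendocrine markers with a probe set 2 were measured, CHGA and SYP, with sums over the 3 of 135 to 238. Their part in the GATA2 and GATA3 results was not tested.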

How the data were processed

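Total RNA of each subpopulation was hybridised to 1 array. Each value deposited by the authors is a linear probe set intensity. The submitters' processing notes name MAS5, with no version in the sources used here. Of 54675 probe sets, 62 were controls, and in the platform annotation 1801 carried several symbols and 11777 none. The probe set that was brightest on average (mean log2) stood for its gene.

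Signals below the floor, the 50th percentile of each array's probe sets other than controls, were set to it. A pair with both arrays at the floor had a log2 ratio of 0, and with 1 array at it the ratio is a bound. Both pairs had to reach 2-fold, in 1 direction, for a gene to count. The E-cadherin and CD133 comparisons share all 4 arrays. The additive limma fit used the same floored values. Its residual is the difference between the 2 pairs of a comparison, moderated over all genes, and not a spread between replicates. Scripts were tested on simulated data.

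The members and the gene lists were chosen with earlier results of these data known. Named were all members, up to 4 counted genes of each list per comparison and direction, and the 3 nearest genes of each member above the floor on all arrays; cell type markers and neighbouring genes were named besides. Alternatives changed the scaling, the floor, the threshold, the probe sets of a gene and the rule. Used were Python 3.11.15, numpy 2.4.6, pandas 2.3.3, matplotlib 3.10.9, R 4.3.3 and limma 3.58.1.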

Additional observations from a re-analysis of the deposited data

Results flagged for a closer look

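GATA4 and KLF5 had ratios of at least 1.5-fold in opposite directions in the 2 pairs of a comparison, which was not tested for lack of replicates. The CD133 log2 ratio of GATA4 was -0.80 among E-cadherin-high and 0.82 among E-cadherin-low cells. The E-cadherin log2 ratio of KLF5 was 0.69 among CD133-high and -0.76 among CD133-low cells.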

How the results depend on the processing

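No paired analysis was possible because each subpopulation has 1 array and the labels give no replicate numbers. For E-cadherin, 2 of the 9 genes were counted. The count was 1 after quantile normalization, with equal array medians, with the floor at the 65th percentile and without probe sets marked as shared (GATA6 in each). It was 0 at 3-fold, as a mean over probe sets, and in the additive limma fit, with or without a floor or among genes above it on all arrays. It was 3 without a floor, with the floor at the 25th percentile and at 1.5-fold, with FOXA2 added. For CD133, 2 were counted. The limma fit called 1 (GATA3), 1 among genes above the floor on all arrays, and 0 without a floor; the last 2 fits were added after seeing the data. As a mean over probe sets the 2 genes were GATA3 and GATA6 in place of GATA2 and GATA3, and at 1.5-fold ELF3 was added. GATA3 was counted as lower with CD133 in all alternatives other than the limma fit without a floor. No counted ratio of a member turned its sign. Equal array medians shifted the median E-cadherin ratio of all genes by -0.12 among CD133-high cells.

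Over all 14083 measured genes, 143 were counted for E-cadherin and 503 for CD133. Of the same genes, quantile normalization gave 140 and 482, and equal array medians 140 and 523. Averaging the probe sets left 12402 genes, of which 99 and 350 were counted. Dropping shared probe sets left 11095, of which 125 and 390 were. Removing the floor raised the measured genes to 19775. A 25th percentile floor left 18572 of them, and a 65th percentile floor 10657. The counts were 1179 and 1609 without a floor, 576 and 988 with the floor at the 25th percentile, 508 and 1487 at 1.5-fold, 31 and 156 at 3-fold, 85 and 336 with the floor at the 65th percentile, and 0 and 55 in the limma fit, which called 0 and 0 without a floor and 0 and 35 among genes above it on all arrays. For E-cadherin, each setting that counted 3 members thus also counted more of all genes than the main setting did. Signals near the floor (GATA4, NKX2-1, FOXA2 and ELF3 on most arrays) limit what can be read from those genes, and 1 array a subpopulation limits the precision of all.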

Other observations

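NKX2-1 and FOXA1 lie on chromosome 14 with 16 genes between them in RefSeq order, and their signals took different courses. The neighbours named here were looked up after the members' values had been seen. Beside FOXA1, TTC6 read 74.1 and 91.3 in E-cadherin-high cells (CD133-high and CD133-low) and lay below the floor in E-cadherin-low cells, at 35.3 and 56.5. Its second probe set read 76.5, 28.4, 79.9 and 65.7 in the order given next, below the floor on the E-cadherin-low CD133-high array only. MIPOL1 read 1342, 776, 1173 and 1110 in the order E-cadherin-high CD133-high, E-cadherin-low CD133-high, E-cadherin-high CD133-low and E-cadherin-low CD133-low, with its lowest signal where FOXA1 was lowest. Another of its probe sets was lowest there too (207, 138, 295 and 144), and one more was lowest elsewhere (307, 286, 128 and 456). TAF3, upstream of GATA3, read 356, 329, 275 and 655 by its brighter probe set and 153, 152, 245 and 207 by the other, with CD133 ratios between -0.99 and 0.37.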
